A study of Homo sapiens with 12 samples.

Results

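ARv7 is a splice variant of the androgen receptor that lacks the ligand-binding domain, and its level was moved in opposite directions in a pair of human prostate cancer cell lines. C4-2, a castration-resistant derivative of LNCaP, carried either a lentiviral vector control or a lentivirus for ARv7 overexpression. 22Rv-1, a line from the CWR22R xenograft that makes ARv7 on its own, carried either a lentiviral short hairpin control or a hairpin for ARv7 depletion. High ARv7 therefore means C4-2 cells with ARv7 and 22Rv-1 control cells, and low ARv7 means C4-2 control cells and depleted 22Rv-1 cells. The comparison took in all 12 libraries of the series, 6 a side in 4 groups of 3, with the cell line as a block. All cells had been infected, selected with puromycin, grown in serum-containing medium with no hormone or drug named, and plated in triplicate dishes. The labels do not say whether the 3 dishes of a group came from separately selected cells. Within a line, and for the difference between lines, p-values therefore measure only the spread between dishes. Those of the comparison over both lines also take in how far the lines disagree, with the 12 libraries counted as replicates. The opposite design means that in C4-2 the high side was the manipulated one, and in 22Rv-1 the low side was.

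The androgen receptor is a hormone-activated transcription factor that drives luminal differentiation genes of the prostate. Full-length receptor needs androgen to enter the nucleus and bind DNA. Because ARv7 keeps the activating and DNA-binding parts and lacks the hormone-binding part, it can act without androgen, and it is known in the clinic for its link to resistance against drugs that target hormone binding. The study's title ties it to the DNA damage response.

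Total read counts ran from 12318529 to 14672948 per library. Levels below are in CPM, counts relative to the library total scaled with TMM factors over all 12 libraries, so the lines can be set side by side for a gene. Replicates of each group differed by more than counting error. C4-2 control replicate 3 stood apart most from its fellows, with a chi-square of counts, divided by its degrees of freedom, of 12.3 and 6.85 against the other controls, where the remaining pairs had 2.1 to 4.64. All 13 luminal prostate markers chosen to check the cell type were expressed in all 4 groups.

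Across 14235 tested genes, high against low ARv7 called 4317 (30.3%) in the additive model, 2224 higher (15.6%) and 2093 lower (14.7%). Calls are Benjamini-Hochberg adjusted p under 0.05 in edgeR's quasi-likelihood test throughout. Within the lines the calls were 7988 in C4-2 (56.1%), 4176 of them higher (29.3%) and 3812 lower (26.8%), and 6030 in 22Rv-1 (42.4%), 3005 of them higher (21.1%) and 3025 lower (21.3%). The difference between the lines was itself called for 7211 genes (50.7%), with 3897 higher in C4-2 (27.4%) and 3314 lower (23.3%). An average over lines therefore stood for both lines in a minority of genes: 1972 (13.9%) were called in the additive model and in each line the same way, 1160 higher (8.15%) and 812 lower (5.7%). Of these, 897 still differed in size between the lines, the change was larger in C4-2 for 1339, and the median absolute log2 change was 0.59 in C4-2 and 0.42 in 22Rv-1. Only 69 of them were at least 2-fold higher in both lines and 90 at least 2-fold lower.

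Of the 3715 genes called in both lines, 1996 (53.73%) moved the same way and 1719 moved opposite ways, which is 12.1% of the genes tested. The additive model called 11 of the opposite genes. Most of its own calls, 2292 (53.09%), were called in 1 line only, 1472 in C4-2 and 820 in 22Rv-1. The other line was under 1 CPM in 166 of the former and 296 of the latter. Its uncalled change had the sign of the additive call in 1299 of the 1472 and 679 of the 820. The median absolute log2 change of the other line was 0.126 and 0.155. The additive call itself favours genes whose lines agree in sign. Over all genes tested, the changes of the lines had a Pearson r of 0.067 and a Spearman rank correlation of 0.058, given as a description across 14235 genes that are not independent replicates. The scaling sets part of the balance. With total counts and no scaling factor, the share of calls that were higher went from 52.28% to 67.54% in C4-2, from 49.83% to 39.8% in 22Rv-1, and from 51.52% to 57.63% in the additive model, and the median log2 change of all genes went from 0.02 to 0.16, from -0.01 to -0.06 and from -0.01 to 0.03.

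**Figure D1:**
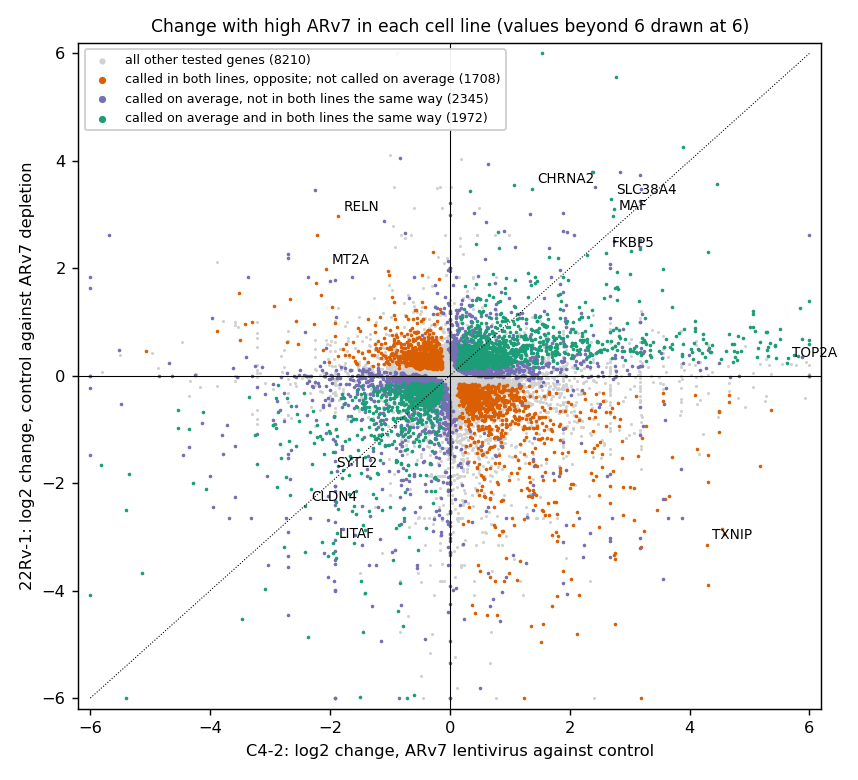
Log2 change between high and low ARv7 of each tested gene in C4-2 (horizontal axis) and in 22Rv-1 (vertical axis), with values beyond 6 drawn at 6 and colours for the 1972 genes called on average and in both lines the same way, the 2345 other average calls, the 1708 genes called in opposite directions and not on average, and the 8210 others. The opposite calls fill the upper left and lower right, where one line's change is above 0 and the other's below.

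The ARv7 level of each group is taken from the labels, since counts per gene do not separate splice forms.

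Shared rises and falls are ranked here by the additive estimate, among genes called in both lines with a mean of at least 5 CPM in each and no overlap of high and low libraries in either. First among the rises was SLC38A4, a sodium-coupled amino acid transporter gene on chromosome 12 (46764761 to 46832408). Its low libraries stood at 5.17, 6.34 and 5.205 CPM in C4-2 and at 9.003, 6.606 and 6.655 in 22Rv-1. Its high libraries stood at 32.07, 39.12 and 36.46 CPM in C4-2 and at 66.35, 72.09 and 78.43 in 22Rv-1. The additive log2 change was 3.00 ± 0.135 (SE; edgeR adjusted p = 1.62e-08), with a change 0.60 smaller in C4-2 (edgeR adjusted p = 0.0061).

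MAF, a basic leucine zipper transcription factor gene on chromosome 16 (79585843 to 79600737), had a nearly even rise. C4-2 went from 38.23, 37.89 and 45.52 CPM to 263.8, 274.3 and 264.4 with ARv7, and 22Rv-1 stood at 6.099, 4.918 and 6.247 after depletion against 45.03, 44.27 and 47.17 in controls. The log2 changes were 2.72 in C4-2 and 2.98 in 22Rv-1, although C4-2 held several times more transcript in either state. The lines differed by -0.26 (95% interval -0.52 to 0.01; edgeR adjusted p = 0.099), so a difference of up to about that size was not separated from the spread.

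FKBP5, a co-chaperone of steroid receptors and a classical androgen target (chromosome 6, 35573585 to 35728583), had the smallest adjusted p of the largest rises. C4-2 control libraries held 102.2, 102.4 and 97.03 CPM and those with ARv7 612.3, 621 and 611.5. Depleted 22Rv-1 libraries held 194.5, 189.2 and 190.7 CPM and controls 911.4, 916.7 and 979.3. That is 6.12-fold in C4-2 and 4.89-fold in 22Rv-1, with an additive log2 change of 2.45 ± 0.064 (SE; edgeR adjusted p = 1.16e-10). The 2 lines' changes differed by 0.32 on the log2 scale (edgeR adjusted p = 0.00032).

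The other large shared rises were less even. ELL2, a transcription elongation factor gene, rose by 2.81 in C4-2 and 1.62 in 22Rv-1 on the log2 scale, and CHRNA2, a nicotinic receptor subunit gene, by 1.37 and 3.48. ADAM7, of the ADAM family of membrane proteins, rose by 3.55 and 2.00, and TENM1, a teneurin of neuronal cell surfaces, by 3.71 and 1.28. In each of these 4 genes the difference between the lines was called. The remaining 5 of the 12 largest shared rises, AKAP12, MYBL2, TOP2A, UHRF1 and IQGAP3, rose by 5.07 to 6.12 in C4-2 and by only 0.25 to 0.91 in 22Rv-1. AKAP12, a scaffold of protein kinase A, lost its additive call without C4-2 control replicate 1, 2 or 3 (edgeR adjusted p = 0.0539, 0.0614 and 0.0624).

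**Figure D2:**
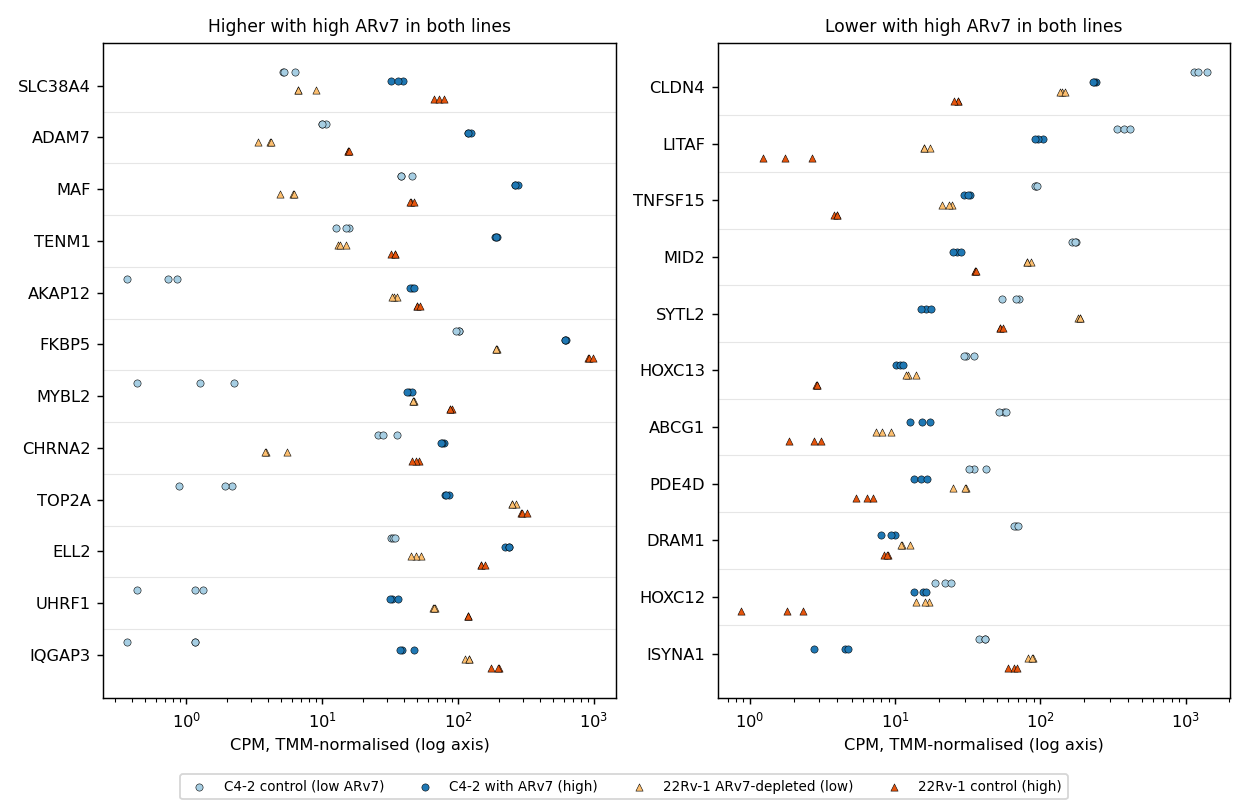
CPM on a log axis of genes that changed the same way in both lines, with 1 point per library and 4 groups of 3 libraries per gene. In FKBP5 the 6 high libraries lie between 611.5 and 979.3 CPM and the 6 low ones between 97.03 and 194.5.

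First among the falls by the same ranking was CLDN4, a tight junction claudin of epithelia (chromosome 7, 73799542 to 73832693). C4-2 control libraries held 1141, 1213 and 1405 CPM and those with ARv7 241.6, 233.7 and 231.6. Depleted 22Rv-1 libraries held 140.8, 137 and 148.2 CPM and controls 26.94, 26.92 and 25.39. The levels of the lines were far apart and their changes nearly equal, -2.41 in C4-2 and -2.43 in 22Rv-1 on the log2 scale, with a difference of 0.02 (95% interval -0.17 to 0.20). The additive change was -2.42 ± 0.058 (SE; edgeR adjusted p = 7.26e-11).

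SYTL2, which encodes a Rab27 effector of vesicle traffic, also fell in both lines. It went from 70.85, 67.75 and 54.07 CPM to 16.2, 17.53 and 14.95 with ARv7 in C4-2, and stood at 180.3, 186 and 188 after depletion against 52.5, 52.28 and 54.92 in control 22Rv-1. The ranking takes only genes without overlap, so that the groups were apart in each line is no separate result. The lines differed by -0.19 on the log2 scale (95% interval -0.42 to 0.05). ABCG1, a cholesterol efflux transporter, fell by 1.87 in C4-2 and by 1.68 in 22Rv-1 on the log2 scale (difference -0.19, 95% interval -0.65 to 0.27). LITAF, an endosomal membrane protein, and TNFSF15, a cytokine of the tumour necrosis factor family, fell more in 22Rv-1 (log2 -1.94 and -3.12, and -1.57 and -2.57, C4-2 first).

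Uneven falls included genes that barely moved in 1 line. MID2, a microtubule-associated ubiquitin ligase, had log2 changes of -2.68 and -1.21, DRAM1, an autophagy modulator, -2.90 and -0.42, and ISYNA1, the enzyme that makes inositol phosphate from glucose phosphate, -3.35 and -0.40, C4-2 first. PDE4D, a cyclic AMP phosphodiesterase, had -1.28 and -2.19. The homeobox gene HOXC13 had -1.57 and -2.14, and its neighbour HOXC12 had -0.53 and -3.24. Among the 24 largest shared rises and falls, the difference between the lines was not called in 4: MAF, CLDN4, SYTL2 and ABCG1.

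Androgen-induced genes were higher on the high side as a group. Of 28 tested, 16 rose and 3 fell in the additive model, with a median log2 change of 0.74 against -0.01 over all genes tested, and 14 rose in both lines as well. TMPRSS2, a serine protease gene, rose by 0.51 in C4-2 and 1.16 in 22Rv-1. PMEPA1, an inhibitor of TGF-beta signalling, rose by 1.07 and 0.69. ACSL3, a long-chain acyl-CoA ligase, rose by 1.32 and 0.58. TSC22D3, the glucocorticoid-induced leucine zipper gene, fell in both lines (log2 -2.87 and -0.18), and SGK1, a serum- and glucocorticoid-induced kinase, fell in C4-2 (log2 -1.17) with -0.70 in 22Rv-1 (edgeR adjusted p = 0.121).

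The best-known androgen target did not follow that group in both lines. KLK3, which encodes prostate-specific antigen, stood at 628.9, 672.1 and 715.2 CPM in C4-2 controls and 2575, 2529 and 2514 with ARv7, but at 21.64, 21.87 and 26.75 in depleted 22Rv-1 and 15.83, 15.48 and 13.63 in 22Rv-1 controls. It was thus higher with high ARv7 in C4-2 (log2 1.92), lower with high ARv7 in 22Rv-1 (log2 -0.65), and not called on average (log2 0.76; edgeR adjusted p = 0.162). KLK2 had log2 2.24 and -0.32, and CENPN, a centromere protein gene, 1.37 and -0.77. KLK4, of the same list, went the reverse way (log2 -0.51 and 0.13). Reads of close paralogs such as KLK2 and KLK3 may be shared in part. Of 18 androgen-repressed genes, 3 were higher and 3 lower on average (median log2 -0.17), close to the 15.6% higher and 14.7% lower over all genes tested. The higher count was 1 without 22Rv-1 depleted replicate 1 or 22Rv-1 control replicate 1. ST7 fell in both lines (log2 -1.25 and -0.57).

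Genes of DNA replication and of mitosis were higher with high ARv7 in both lines, by very different amounts. Of 40 replication and G1/S genes, 37 rose and 0 fell in the additive model, at a median log2 change of 0.78, and 32 rose in each line too. The line medians were 1.19 in C4-2 and 0.52 in 22Rv-1, against 0.02 and -0.01 over all genes. Of 37 mitosis and G2/M genes, 33 rose and 0 fell at a median of 1.67, with all 37 higher in C4-2 and 24 in 22Rv-1. The line medians were 3.87 and 0.36, which is 14.7-fold in C4-2 and 1.28-fold in 22Rv-1, and the difference between the lines was called for all 37. The additive count of mitosis genes fell to 21, 17 and 19 without C4-2 control replicate 1, 2 or 3. In bulk RNA, more dividing cells and more RNA per dividing cell cannot be told apart.

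The summed level of the mitosis list placed the 4 groups in a clear order. It was 157.2, 155.2 and 153.7 CPM in C4-2 controls, 1032, 1081 and 1071 in C4-2 with ARv7, 2048, 1995 and 1942 in depleted 22Rv-1, and 2522, 2531 and 2655 in 22Rv-1 controls. The C4-2 controls thus stood far below the other 9 libraries, and depleted 22Rv-1 stayed above C4-2 with ARv7. The replication list kept the same order, at 1029 to 1090 CPM in C4-2 controls, 2119 to 2138 with ARv7, 3609 to 3655 in depleted 22Rv-1 and 5213 to 5347 in its controls.

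MCM3, a subunit of the replicative helicase (chromosome 6, 52264014 to 52284881), was the most even of the replication genes named. It stood at 42.6, 41.28 and 45.37 CPM in C4-2 controls and 75.8, 83.02 and 82.36 with ARv7, and at 125.5, 128.4 and 133.6 in depleted 22Rv-1 and 224.8, 215.8 and 202.9 in its controls. The additive log2 change was 0.81 ± 0.053 (SE; edgeR adjusted p = 5.41e-07), with 0.90 in C4-2 and 0.73 in 22Rv-1 (difference 0.17, 95% interval -0.01 to 0.35). MCM7, of the same helicase, rose by 0.83 and 0.53, PCNA, the sliding clamp, by 0.72 and 0.50, and RFC3, of the clamp loader, by 1.01 and 0.61. TK1, CCNE1 and CCNE2 were the replication genes without an additive call.

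TOP2A, the topoisomerase that untangles chromosomes, showed how far an average can be from either line. It stood at 2.185, 0.8846 and 1.942 CPM in C4-2 controls and 79.87, 85.23 and 82.2 with ARv7, but at 265.7, 250.4 and 249.1 in depleted 22Rv-1 and 292.5, 293.5 and 321.3 in its controls. The additive change of 2.22 ± 0.779 (SE, log2; edgeR adjusted p = 0.0472) stood for 5.62 in C4-2 and 0.25 in 22Rv-1. Its call was lost without any 1 of the 6 C4-2 libraries (edgeR adjusted p from 0.0678 to 0.12) and with total counts (0.0564). The kinase gene NEK2 behaved alike (log2 5.81 and 0.37), and also lost its call without any 1 C4-2 library (edgeR adjusted p from 0.0701 to 0.0958) and with total counts (0.0537). FOXM1, which switches on G2/M genes, rose by 3.21 and 0.71, AURKA, a spindle kinase, by 1.75 and 0.39, KIF23, a kinesin of cell cleavage, by 1.71 and 0.40, and INCENP, of the chromosomal passenger complex, by 0.84 and 0.36. TTK, PRC1, DLGAP5 and UBE2C were the mitosis genes without an additive call.

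Some promoters of replication and mitosis genes hold short sequences known to bind cell-cycle regulators, and 4 that do are shown with FKBP5 for contrast. Each is the 250 bases before the transcription start, 5′ to 3′ on the gene's strand, from RefSeq on GRCh38.p14, with capitals for the motifs CCAAT (the NF-Y box), TTTGAA (the cell cycle homology region) and TTTCGCGC, TTTGGCGC or TTTCCCGC (E2F), on either strand. MCM3 is chr6:52284743-52284992, MCM7 chr7:100101398-100101647, PCNA chr20:5126623-5126872 and FKBP5 chr6:35728584-35728833, all on the minus strand, and CDC20 is chr1:43358731-43358980 on the plus strand.
MCM3: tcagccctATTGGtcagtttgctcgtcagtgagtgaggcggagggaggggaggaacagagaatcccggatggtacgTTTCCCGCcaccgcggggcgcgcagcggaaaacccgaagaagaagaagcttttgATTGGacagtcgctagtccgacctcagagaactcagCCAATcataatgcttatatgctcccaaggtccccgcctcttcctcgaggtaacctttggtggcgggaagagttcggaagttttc
MCM7: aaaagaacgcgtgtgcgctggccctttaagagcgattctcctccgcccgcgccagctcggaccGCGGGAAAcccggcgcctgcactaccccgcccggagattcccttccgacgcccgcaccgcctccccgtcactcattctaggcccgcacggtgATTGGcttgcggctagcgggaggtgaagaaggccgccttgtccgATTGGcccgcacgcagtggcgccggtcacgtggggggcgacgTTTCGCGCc
PCNA: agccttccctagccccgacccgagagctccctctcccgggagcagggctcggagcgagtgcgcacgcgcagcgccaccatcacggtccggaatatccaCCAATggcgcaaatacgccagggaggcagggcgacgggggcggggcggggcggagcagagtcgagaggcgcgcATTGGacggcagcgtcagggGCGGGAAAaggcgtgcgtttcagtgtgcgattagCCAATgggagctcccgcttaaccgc
CDC20: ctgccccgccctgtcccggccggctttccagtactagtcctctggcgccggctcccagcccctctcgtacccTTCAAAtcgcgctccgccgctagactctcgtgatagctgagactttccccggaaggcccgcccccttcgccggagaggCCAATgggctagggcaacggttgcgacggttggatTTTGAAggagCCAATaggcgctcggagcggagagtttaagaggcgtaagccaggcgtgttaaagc
FKBP5: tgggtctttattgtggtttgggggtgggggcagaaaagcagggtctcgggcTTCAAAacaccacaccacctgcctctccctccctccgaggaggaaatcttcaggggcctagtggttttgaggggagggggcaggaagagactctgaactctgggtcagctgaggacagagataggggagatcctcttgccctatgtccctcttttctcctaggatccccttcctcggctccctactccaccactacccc
MCM3 and PCNA hold 3 CCAAT boxes and 1 E2F motif each, MCM7 holds 2 of each, and CDC20, an activator of the anaphase-promoting complex that rose by 3.06 and 0.47, holds 2 CCAAT boxes and 2 TTTGAA motifs. FKBP5 holds 1 TTTGAA and no CCAAT box. AGAACA, a part of the sequence the androgen receptor recognises, was searched as well and is in none of these 5 windows, which says only that those letters are absent from 250 bases. The 4 shown do not stand for every list member: RFC3 holds 1 E2F motif and no CCAAT box or TTTGAA.

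Over all tested genes with a promoter in the table, 11354, the share with a CCAAT box was 35%, and it was 33% over all 27305 promoters. It was 44.2% among 948 genes higher in both lines and on average, 29% among 638 lower, and 66.2% among 65 genes of the replication and mitosis lists. Without those lists the genes that were higher still held it in 43%. E2F motifs were in 3.73% of tested genes, 6.54% of those higher, 2.66% of those lower and 24.6% of the 65, against 2.38% of all promoters. TTTGAA was in 8.57%, 11.7%, 6.74% and 30.8% in the same order, against 13.6% of all promoters. AGAACA was in 7.54%, 6.75%, 4.55% and 9.23%, against 12.4%. These shares are descriptions of letters, not of binding, and were not tested.

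**Figure D3:**
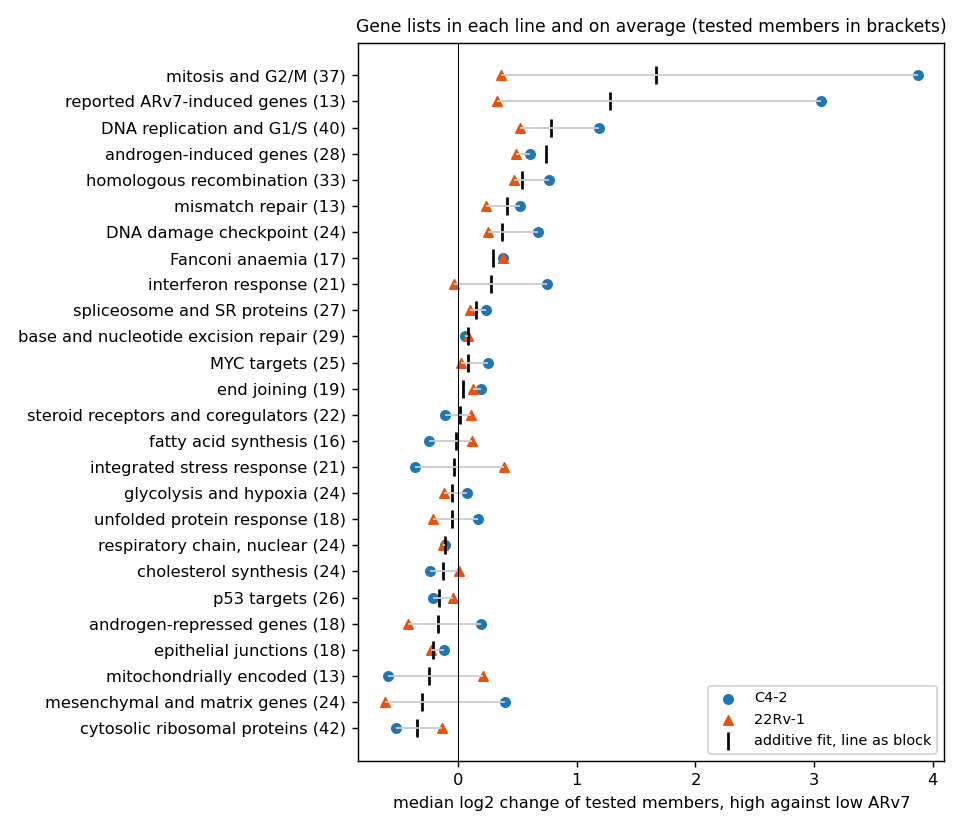
Median log2 change between high and low ARv7 of each gene list in C4-2 (circles), in 22Rv-1 (triangles) and in the additive model (ticks). The mitosis list has the widest gap, with 3.87 in C4-2 and 0.36 in 22Rv-1. The stress response, mitochondrially encoded and matrix lists are among several with line medians on opposite sides of 0.

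DNA repair lists moved up in part. Of 33 homologous recombination genes, 24 rose and 0 fell in the additive model (median log2 0.54), and 19 rose in each line too. NBN, a subunit of the sensor of double-strand breaks, had one of the even changes, 0.62 in C4-2 and 0.73 in 22Rv-1 (difference -0.11, 95% interval -0.34 to 0.13). RAD51C, a mediator of strand exchange, rose by 0.56 and 0.49 (difference 0.07, 95% interval -0.18 to 0.32). RAD54L, a motor protein of strand exchange, rose by 2.05 and 0.87, and RMI1, of the complex that dissolves crossed strands, by 0.45 and 0.27. MUS81, a nuclease, went opposite ways (log2 -0.58 and 0.46).

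Of 24 checkpoint genes, 15 rose and 0 fell on average (median log2 0.37), and 11 rose all ways. TIMELESS, which protects replication forks, had the smallest adjusted p of them: its additive log2 change was 0.84 ± 0.043 (SE; edgeR adjusted p = 5.14e-08), with 0.79 in C4-2 and 0.89 in 22Rv-1 (difference -0.09, 95% interval -0.26 to 0.07). CDC25A, the phosphatase that releases cyclin-dependent kinases, rose by 1.08 and 0.96 (difference 0.12, 95% interval -0.20 to 0.43). MDC1, a scaffold at breaks, rose by 0.79 and 0.59, and H2AX, the histone marked there, by 0.91 and 0.35. RNF168 and CDC25B went opposite ways between the lines.

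Of 17 Fanconi anaemia genes, 9 rose and 0 fell (median log2 0.29), among them UBE2T, the ubiquitin-conjugating enzyme of the pathway (1.29 and 0.52), FANCI (2.10 and 0.56), FANCL (0.93 and 0.42) and FANCM (0.52 and 0.37). Of 13 mismatch repair genes, 11 rose and 0 fell (median 0.41), with MSH6 at 0.60 and 0.22 and LIG1, a ligase shared with replication, at 1.43 and 0.84. Of 19 end-joining genes, 8 rose and 1 fell (median 0.04; 0 to 2 fell when any 1 library was left out), and PRKDC, the DNA-dependent kinase, rose by 0.55 and 0.25. PARP2 rose by 0.50 and 0.60 (difference -0.10, 95% interval -0.34 to 0.15). Of 29 base and nucleotide excision genes, 5 rose and 4 fell (median 0.09), close to the 15.6% higher and 14.7% lower over all genes tested. UNG (0.84 and 0.43) and FEN1 (1.21 and 0.46), of base excision and replication, were among those that rose. POLB, the gap-filling polymerase (log2 -0.54 and -0.36), and ERCC1, of the excision nuclease (log2 -0.22 and -0.29), fell in both lines. The count that rose in that list was 3 without C4-2 control replicate 1, 2 or 3, C4-2 ARv7 replicate 1 or 2, 22Rv-1 depleted replicate 2 or 3, or 22Rv-1 control replicate 3.

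Targets of p53 were more often lower than higher with high ARv7, 11 against 5 of 26 (median log2 -0.16), and 6 fell all ways where 0 rose. TP53INP1, a promoter of cell death and autophagy, fell with log2 -1.22 and -1.17 (difference -0.05, 95% interval -0.24 to 0.14; additive edgeR adjusted p = 2.45e-08). CDKN1A, which encodes the cell-cycle inhibitor p21, fell with -0.70 and -0.32, GDF15, a stress cytokine, with -0.67 on average, and RRM2B, a ribonucleotide reductase subunit, with -0.60 and -0.47. SESN2, a stress-induced metabolic regulator, was higher on average, through 22Rv-1 (log2 0.12 and 0.85), and the death receptor gene TNFRSF10B through C4-2 (log2 0.67 and 0.11). BTG2 and AEN went opposite ways. The count that rose was 3 without C4-2 ARv7 replicate 1 or 2 or C4-2 control replicate 2 or 3.

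Genes for cytosolic ribosomal proteins were lower on the high side in both lines. Of 42 genes, 39 fell and 0 rose in the additive model (median log2 -0.34), with 41 lower in C4-2 (median -0.52) and 21 in 22Rv-1 (median -0.13). The 22Rv-1 count depended on the setting: it was 33 with total counts, 16 with size factors from DESeq2, 17 with DESeq2, 11 without 22Rv-1 depleted replicate 1 and 12 without 22Rv-1 control replicate 3. RPL11 fell with log2 -0.44 and -0.32, RPS3 with -0.50 and -0.35 and RPL18 with -0.58 and -0.32. Their share of all counts was 9.12%, 9.55% and 10.5% in C4-2 controls and 7.65%, 7.86% and 7.81% with ARv7, and 8.17%, 7.72% and 7.89% in depleted 22Rv-1 and 6.88%, 6.93% and 6.62% in its controls. The 6 high libraries did not overlap the 6 low ones within a line. C4-2 control replicate 3, which stood apart from its fellows, had the highest share, and the list's additive count was 33 to 39 when any 1 library was left out.

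Mitochondrially encoded transcripts did not share that pattern. All 13 were lower with high ARv7 in C4-2 (median log2 -0.59), 9 were higher and 1 lower in 22Rv-1 (median 0.21), and the additive model called 3 lower. Their share of counts was 4.07%, 4.34% and 4.66% in C4-2 controls and 3.52%, 3.36% and 3.3% with ARv7, but 3.43%, 3.35% and 3.34% in depleted 22Rv-1 and 3.98%, 3.94% and 3.94% in its controls. Nuclear genes of the respiratory chain were lower in 6 of 24 and higher in 0 on average (median log2 -0.11), such as NDUFA4 (log2 -0.23 and -0.41) and COX5A (log2 -0.25 and -0.28). With total counts, the median of those nuclear genes in C4-2 went from -0.11 to 0.03.

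The integrated stress response split by line. Of 21 genes, 14 were lower and 3 higher in C4-2 (median log2 -0.36), 17 were higher and 0 lower in 22Rv-1 (median 0.39), 11 were called in opposite directions, and the additive model called 5. SLC7A5, an amino acid transporter, rose in both lines (log2 0.66 and 0.78) from very different levels, 12.7 ± 2.26 CPM in C4-2 controls and 2131 ± 63.2 in depleted 22Rv-1 (SD, n = 3). ATF3, a stress-induced factor, also rose in both (log2 0.94 and 0.33). The unfolded protein response split the other way, with 9 of 18 higher and 1 lower in C4-2 and 2 higher and 12 lower in 22Rv-1, and 7 called in opposite directions. With total counts, 16 were higher in C4-2. SEL1L, of endoplasmic reticulum-associated degradation, was 0.30 higher in each line.

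Junction genes fell in both lines more often than they rose, and matrix genes moved apart. Of 18 epithelial junction genes, 9 fell and 1 rose (median log2 -0.21), and 6 fell all ways, among them CLDN4, TJP3 (log2 -1.19 and -0.71), the plakoglobin gene JUP (log2 -0.46 and -0.83) and EPCAM (log2 -0.36 and -0.63). ESRP1, an epithelial splicing regulator, rose by 0.17 and 0.50. With total counts, the median of the list in C4-2 went from -0.12 to 0.01. VIM, the vimentin gene, rose by 2.79 and 1.64, from 1.09 ± 0.504 CPM in C4-2 controls and 13.3 ± 1.17 in depleted 22Rv-1 (SD, n = 3), and SNAI2, a transcription factor known for its part in epithelial to mesenchymal transition, by 0.59 and 0.72. Over the 24 mesenchymal and matrix genes, however, 9 were higher in C4-2 (median log2 0.40) and 10 lower in 22Rv-1 (median -0.61). FN1, COL1A1, COL6A1, COL6A2 and IGFBP3 were called in opposite directions. IGFBP3, which binds insulin-like growth factors outside the cell, had an additive log2 change of -2.67 that stood for 0.72 in C4-2 and -4.16 in 22Rv-1. That call was lost without any 1 of the 22Rv-1 controls (edgeR adjusted p from 0.0687 to 0.0698).

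Lipid genes moved both ways. ACSL1, an acyl-CoA ligase, fell with log2 -1.15 and -0.90 while its relative ACSL3 rose. SREBF1, the regulator of fatty acid synthesis, fell with log2 -0.49 and -0.38, and ELOVL5, a fatty acid elongase, rose by 0.53 and 0.34. Over 16 fatty acid genes 4 rose and 6 fell in the additive model, where 30.3% of all genes were called, with 5 higher and 9 lower in C4-2 and 8 higher and 5 lower in 22Rv-1. Over 24 cholesterol genes 1 rose and 5 fell on average (2 rose without 22Rv-1 depleted replicate 2). In C4-2, 14 of these were lower and 5 higher (median log2 -0.24), where 26.8% of all genes were lower, and in 22Rv-1 6 were lower and 4 higher (median 0.01). Those that fell in both lines included MSMO1 at log2 -0.64 and -0.47, SC5D at -0.52 and -0.29 and HSD17B7 at -1.48 and -0.33. HK1, a hexokinase, was lower in both lines (log2 -0.28 and -0.24), where 2 of 24 glycolysis and hypoxia genes were higher and 3 lower on average and 6 went opposite ways. The higher count of that list was 0 without C4-2 ARv7 replicate 1, 2 or 3 or C4-2 control replicate 1 or 2. Of 27 spliceosome genes 11 rose and 0 fell on average (median log2 0.15), among them PTBP1 (0.47 and 0.26) and HNRNPD (0.63 and 0.27). Only 5 rose all ways, with 16 higher and 6 lower in C4-2 and 9 higher and 1 lower in 22Rv-1.

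For the lists of this paragraph, the shares over all genes tested were 15.6% higher and 14.7% lower on average. Of 22 steroid receptors and coregulators, 5 rose and 5 fell on average, and the count that fell was 3 without C4-2 ARv7 replicate 1, 2 or 3. GATA2, a pioneer factor for the androgen receptor, fell with log2 -0.42 and -1.07, NCOA4 fell with -0.31 and -0.17, and MED1, a Mediator subunit, rose by 0.24 and 0.32. Of 21 interferon response genes, 5 rose and 2 fell on average (1 to 3 fell when any 1 library was left out), with 11 higher in C4-2 and 2 in 22Rv-1 (7 and 0 when genes averaging under 5 CPM were dropped). The count that rose was 2 without C4-2 control replicate 2 or C4-2 ARv7 replicate 2, and 3 without C4-2 control replicate 1 or 3 or C4-2 ARv7 replicate 3. IFI44L, an interferon-induced gene, rose by 1.97 and 1.79 from very low levels, 0.272 ± 0.149 CPM and 0.62 ± 0.164 on the low sides (SD, n = 3). Of 25 MYC targets, 8 rose and 0 fell on average (median log2 0.08), and 4 or 5 rose without any 1 C4-2 library. Yet 0 rose all ways. In C4-2 12 were higher and 6 lower, in 22Rv-1 3 were higher and 3 lower, and 5 went opposite ways. Of 13 genes reported as ARv7-induced, 7 rose and 1 fell on average, and 5 to 8 rose when any 1 library was left out. In C4-2 9 were higher and 3 lower (median log2 3.06), and in 22Rv-1 6 were higher and 1 lower (median 0.33). CDK1, the mitotic kinase, was among those that rose (2.02 and 0.33), and EDN2, an endothelin, fell in both lines (log2 -1.35 and -0.66).

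Of the 1719 genes called in opposite directions, 1708 had no additive call. TXNIP, which encodes the thioredoxin-interacting protein that restrains glucose uptake (chromosome 1, 145992435 to 145996579), was the extreme. It stood at 13.18, 15.26 and 14.6 CPM in C4-2 controls and 275.6, 293.7 and 274.4 with ARv7, and at 99.9, 96.88 and 89.7 in depleted 22Rv-1 against 10.42, 12.56 and 9.42 in its controls. In both lines the manipulated cells were thus the high ones. The log2 changes of 4.29 and -3.15 differed by 7.44, and the additive estimate was 0.63 ± 1.575 (SE; edgeR adjusted p = 0.796).

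RELN, the gene of the extracellular glycoprotein reelin (chromosome 7, 103471784 to 103989658), was lower in the manipulated cells of both lines. C4-2 went from 174.3, 166.6 and 159.5 CPM to 46.99, 47.39 and 42.54 with ARv7, and 22Rv-1 stood at 59.32, 63.93 and 66.34 after depletion against 481.1, 503.1 and 502.8 in controls. MT2A, a metallothionein gene, did the same, with 55.12, 51.97 and 68.13 CPM against 13.97, 15.82 and 11.99 in C4-2, and 5.736, 4.477 and 5.161 against 18.37, 22.96 and 19.57 in 22Rv-1. Neither had an additive call (log2 0.57 and -0.17; edgeR adjusted p = 0.651 and 0.865). SI, ROR1, RHOBTB1, SLITRK6 and DTNA, the other genes at the top of the opposite changes, were all higher in the manipulated cells, with log2 changes of 1.73 to 2.89 in C4-2 and -2.99 to -1.76 in 22Rv-1. SI, RHOBTB1 and SLITRK6 stood under 2 CPM in C4-2, so their C4-2 changes rest on few counts. SLITRK6 alone of the 8 had an additive call (log2 -1.24; edgeR adjusted p = 0.0251). Over all opposite calls the split was even, with 900 higher in the manipulated cells of both lines and 819 lower. A response to ARv7 that differed by line and a response to being manipulated, whatever the ARv7 level, cannot be told apart in this design. Controls were infected and selected as well, and only 22Rv-1 carried hairpins.

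**Figure D4:**
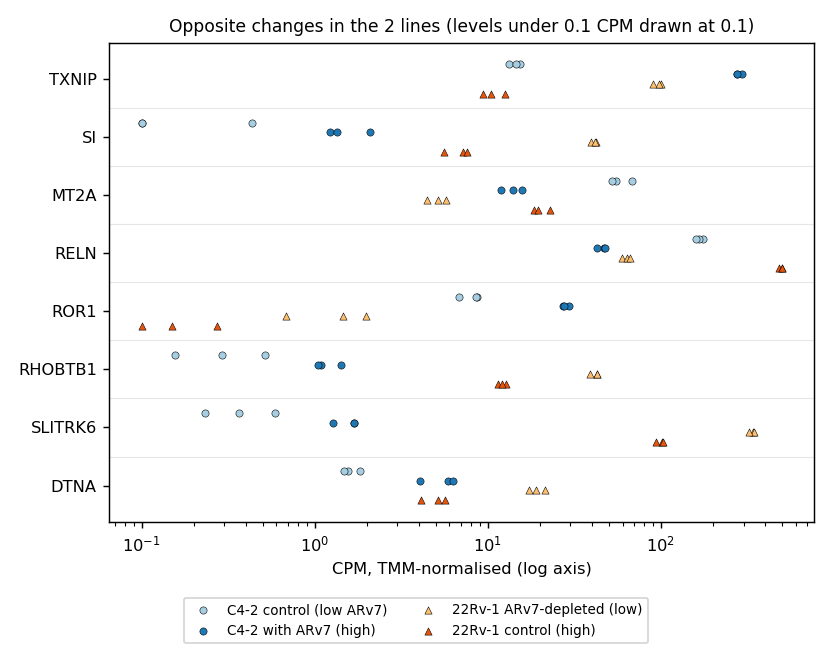
CPM on a log axis of genes called in opposite directions in the lines, with 1 point per library in 4 groups of 3 and values under 0.1 drawn at 0.1. In TXNIP the C4-2 libraries with ARv7 lie at 274.4 to 293.7 CPM above their controls, and the 22Rv-1 controls at 9.42 to 12.56 below the depleted libraries.

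Some of the average calls with the smallest adjusted p rest on 1 line, with the other silent or nearly so. KRT6C, a keratin gene, had 5 reads in all C4-2 controls and 668 with ARv7, and 0 in all 22Rv-1 libraries. INHBA, an activin subunit gene, had 1152 reads in depleted 22Rv-1 and 5 in its controls, and 0 in all C4-2 libraries. PLA2G2A, a secreted phospholipase, had 3559 reads in C4-2 controls and 861 with ARv7, SERPINA5, a protease inhibitor, 665 and 4, and both had 0 in 22Rv-1. KHDRBS2, an RNA-binding protein gene, had 1109 reads in depleted 22Rv-1 and 114 in its controls, and MUC13, a mucin, 3440 and 944, with 0 and 8 reads over all C4-2 libraries. A group with 0 reads allows up to 3, by counting error only. When the average was taken over the line contrasts instead, none of these 6 was called (edgeR adjusted p from 0.135 to 1.00). SLC6A12 and KLRG1 were near-silent in 22Rv-1 too, with 2633 and 4018 reads in C4-2 controls against 0 and 12 with ARv7, and 17 and 31 in depleted 22Rv-1 against 6 and 27 in controls. ORM1, an acute-phase gene, had 3 and 1711 reads in C4-2 and 0 and 2 in 22Rv-1.

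Markers of other cell types were mostly low in C4-2, and in 22Rv-1 a few were not. The 10 neuroendocrine markers summed to 50.68 to 63.03 CPM in C4-2 controls and 28.63 to 34.78 with ARv7. The sum was 382.2 to 398.8 in depleted 22Rv-1 and 616 to 685.1 in its controls. It was thus lower with high ARv7 in C4-2 and higher in 22Rv-1. ENO2, a neuronal enolase, made up most of that sum, with means of 53.8, 27.5, 322 and 546 CPM in the same order. The markers did not fall as a group in C4-2: of the 6 tested, 3 were higher and 3 lower (median log2 0.65). In 22Rv-1 4 of the 6 were higher and 0 lower (median 0.71). SCG3 and SYP, of secretory vesicles, had 21.6 and 36 and 21 and 33.7 CPM in depleted and control 22Rv-1, and INSM1 and NEUROD1, transcription factors of neuroendocrine cells, had at most 0.0748. The 10 fibroblast markers summed to 9.322 to 10.49, 15.91 to 18.04, 29.36 to 33.34 and 45.4 to 47.36 CPM in that order, led by COL1A1 (up to 21.1) and, in 22Rv-1 controls, LUM (22.1). The 8 basal markers summed to 14.82 to 17.4, 20.38 to 24.79, 58.74 to 61.14 and 64.84 to 70.82 CPM, most of it DST (11.6 to 57.5), with TP63 at 0.0979 or less. The 7 endothelial markers summed to at most 18.33 CPM and the 9 leukocyte markers to at most 13.87. The part of these markers in the results was not tested. Of the markers fixed for each type, those under 1 CPM in every group were 2 of 8 basal, 4 of 10 neuroendocrine, 5 of 10 fibroblast, 3 of 7 endothelial and 5 of 9 leukocyte genes, and FAP and CD3D had 0 reads in every library. Of luminal markers 6 of 13 were higher and 2 lower with high ARv7 on average, where 15.6% of all genes were higher and 14.7% lower. In C4-2 8 were higher and 3 lower (median log2 0.29). In 22Rv-1 6 were higher and 5 lower (median 0.07), and 3 went opposite ways between the lines. KRT8, a luminal keratin, fell with log2 -0.38 and -0.55. HOXB13, a prostate homeobox factor, was lower through C4-2 (log2 -0.55 and -0.07) and lost its call without C4-2 ARv7 replicate 1, 2 or 3 (edgeR adjusted p = 0.0511, 0.0572 and 0.0568).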

How the data were processed

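Per the labels' protocols, the 12 libraries were read on an Illumina NovaSeq and trimmed with Cutadapt 2.7. Aligner, counter and strandedness: not given in the sources used here, so reads of overlapping or antisense genes could not be separated. The deposited table held raw read counts per gene, whole numbers that the authors did not normalize, and FPKM, which the authors had corrected for gene length and depth. Of 19974 lines, 1 had no gene identifier and was left out, which left 19973 genes. The submitters' processing notes name hg18, but 19850 of 19876 identifiers found in GENCODE release 29 had a start or end within 10000 bp of it, so coordinates are as in the table and on GRCh38.

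Counts were filtered with filterByExpr on the 4 groups and scaled with TMM in edgeR 4.0.16. The additive model held cell line and ARv7 level in all 12 libraries. A model of 4 group means gave each line's change and the difference between the lines. Coefficients were tested with glmQLFTest, with p-values adjusted by Benjamini-Hochberg over 14235 genes and a threshold of 0.05. The additive estimate weights lines by their counts, and a gene that responds unequally in the lines adds to its spread: the biological coefficient of variation was 0.158 in the additive model and 0.0592 in the other. Both steps were run on simulated data with a spread close to that of the model of group means and with few genes changed. That run does not test the additive calls here, where the spread was larger and many genes differed between the lines.

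Members and the 32 lists, with 653 of their 667 genes found in the table, were chosen with earlier results of these data known, so lists are described by counts and medians with no test. Genes were named by a rule: the 12 largest rises and falls called in both lines with at least 5 CPM in each and no overlap, the 8 largest opposite changes, 6 calls resting on 1 line, the 6 most unequal, and up to 4 members a list by adjusted p with up to 2 against its majority. A few genes taken by this rule are not reported here. KLK2, KLK3 and the members listed as opposite, uncalled or at 0 reads were named after their values were seen.

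The alternative settings were DESeq2 1.42.0, edgeR with size factors from DESeq2, all genes unfiltered, only genes with a mean of 5 CPM or more, glmTreat against a fold of 1.2, limma 3.58.1 with a trend on log2(FPKM + 1) at a mean FPKM of at least 1, a replicate block, each line alone, the mean of the line contrasts, total counts, removal of ribosomal protein and mitochondrially encoded genes, and leaving out each library. List summaries under each were added after seeing the data. Motif shares used the RefSeq promoter table, in which 11354 tested genes were matched by symbol.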

Additional observations from a re-analysis of the deposited data

Results flagged for a closer look

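The difference between the lines was called for 7211 genes, and 1719 genes were called in opposite directions. Among the named genes below, edgeR called the difference between the line changes (C4-2 minus 22Rv-1, log2) and it was at least 2-fold. Groups of 3 libraries were not tested for single outlying values.

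Among genes that rose in both lines, the change in C4-2 exceeded that in 22Rv-1 by 1.56 for ADAM7, 2.43 for TENM1, 1.19 for ELL2, 5.54 for AKAP12, 4.15 for MYBL2, 5.37 for TOP2A, 4.26 for UHRF1, 4.82 for IQGAP3 and 5.44 for NEK2. CHRNA2 had the reverse, -2.11. In 6 of these, AKAP12, MYBL2, TOP2A, UHRF1, IQGAP3 and NEK2, C4-2 controls held a mean under 2 CPM, so the size of the C4-2 change rests on few counts there.

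Among genes that fell in both lines, the fall was larger in 22Rv-1 for LITAF (1.17), TNFSF15 (1.00) and HOXC12 (2.71), and larger in C4-2 for MID2 (-1.47), DRAM1 (-2.49) and ISYNA1 (-2.95). SLC6A12 (-11.36) and KLRG1 (-8.16) fell in C4-2 and had few reads in 22Rv-1, and the former value depends on the prior count because C4-2 cells with ARv7 had 0 reads.

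Among genes that moved in opposite directions, the difference was 7.44 for TXNIP, 5.49 for SI, 4.79 for ROR1, 3.63 for RHOBTB1, 3.70 for SLITRK6 and 3.68 for DTNA, with -4.04 for MT2A and -4.84 for RELN.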

How the results depend on the processing

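The additive count of higher genes, 2224, was 862 against a fold of 1.2 with glmTreat, 1047 with a replicate block, 3781 within C4-2 alone and 3574 as the mean of the line contrasts. The count of lower genes, 2093, was 710, 862, 3776 and 3577 in the same order, and 3220 within 22Rv-1 alone. Without 1 library, higher calls ran from 1808 to 2146, lower from 1678 to 1996, shared rises from 1022 to 1221 and shared falls from 680 to 856. Calls of the difference ran from 6752 to 7308, opposite calls from 1460 to 1878 and calls in both lines with the same sign from 1727 to 2140. C4-2 calls ran from 7331 to 8091 and 22Rv-1 calls from 5161 to 6610. Each other count of calls, 171 in all over these alternatives, was within 1.5 times the reported one. Each line's own change aside, no change of a named gene reversed sign. In C4-2, IGFBP3 moved against its additive change. Of the values for named genes under alternatives, 3089 kept direction and side of the threshold and 211 lost the call, more of them against a fold of 1.2 or with the block than under any other setting. Same-numbered libraries did not deviate together (correlations -0.109 to 0.028). With 3 libraries a group, this cannot tell whether equal numbers were grown or handled together. With the replicate block, additive rises went from 33 to 5 in the mitosis list, 24 to 12 in recombination, 15 to 7 in checkpoint, 11 to 5 in mismatch repair, 11 to 3 in spliceosome, 8 to 5 in end joining, 8 to 1 in MYC targets, 7 to 2 in reported ARv7-induced genes, 5 to 3 in steroid receptors, 5 to 2 in excision repair, stress response and interferon, and 5 to 0 in p53 targets. Additive falls went from 39 to 15 in ribosomal proteins, 11 to 6 in p53 targets, 6 to 3 in the nuclear respiratory chain, 6 to 1 in matrix genes and 5 to 2 in steroid receptors. The other list counts of 5 or more moved by at most 1.5 times. With 3 dishes a group, the depth of 12318529 to 14672948 reads limits genes near 1 CPM most.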

Other observations

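HOXC13 and HOXC12, which were among the largest shared falls, lie in the HOXC cluster on chromosome 12 (53938831 to 54056030 over the tested genes), and the cluster was looked at for that reason after its values were seen. All 8 tested HOXC genes had a negative additive log2 change. HOXC13 (-1.82), HOXC12 (-1.67), HOXC11 (-2.84), HOXC10 (-1.82), HOXC9 (-1.04) and HOXC6 (-0.67) were called, and HOXC8 (-0.98) and HOXC4 (-0.49) were not (edgeR adjusted p = 0.152 and 0.0803). HOXC6 fell by similar amounts in the lines, -0.62 in C4-2 and -0.73 in 22Rv-1. HOXC11 and HOXC10 stood under 1 CPM in C4-2, so their average rests on 22Rv-1, where HOXC11 held 4.792, 3.45 and 3.667 CPM after depletion and 0.4112, 0.5983 and 0.4008 in controls. Several of these gene models overlap, so reads of neighbours could be shared in part.

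By chromosome, the share of tested genes that rose in both lines and on average ran from 5.63% on chromosome 19 to 10.9% on chromosome 8, and the share that fell from 4.01% on chromosome 22 to 7.5% on chromosome 11. These are descriptions with no test.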
